A study of Mus musculus with 36 samples.

Results

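Accessible chromatin was compared between dendritic cells given PAM and 3',3'-cGAMP together and cells given each ligand alone. The members were chosen by column: the 2 libraries of the combination (PcG) were set against the 2 libraries of PAM (P) and the 2 of cGAMP (cG), 6 of the 36 libraries of the series. The series measured ATAC-seq, in which a transposase cuts and tags open DNA, in bone marrow-derived dendritic cells from female C57BL/6J mice of 6 to 8 weeks, grown with GM-CSF at 15 ng/mL. The cells carry no transgene or deletion that the labels name, and 50000 cells per library were used after 6 h. The control (Ctrl) received no ligand. Other groups used here paired the same ligands with others: Z is depleted zymosan, S is SeV, H is HMW and L is LPS, and joined letters name combinations (ZcG, PS, ScG, PScG, PH, PL). The labels do not say whether the 2 libraries of a group came from separate cultures or animals, so p-values measure only the spread between these libraries.

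The name PAM is in common use for synthetic bacterial lipopeptides sensed at the cell surface by TLR2, which acts through MyD88 to NF-kappaB and AP-1 and induces inflammatory cytokines. 3',3'-cGAMP is a bacterial cyclic dinucleotide sensed in the cytosol by STING, which acts through TBK1 and IRF3 to induce interferon-beta. Secreted interferon-beta then acts through its receptor and the transcription factors downstream of it on interferon-stimulated genes. A dendritic cell that meets a bacterium can receive both signals, and the regulatory DNA of cytokine genes holds sites for both sets of factors.

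Sequencing gave 21303203 to 31089150 counts in each of the 6 libraries, and 11718168 to 17266176 of these fell outside a single peak over the mitochondrial genome. That peak took 44.5% to 50.5% of the counts in the 6 libraries but 60.1% to 61.9% in the 2 control libraries. Comparisons of PcG with P or cG do not use the control, whereas the interaction described later does, and there the difference between these sets of libraries and the treatment cannot be told apart. Replicates of a group correlated at Pearson r of 0.959 to 0.971 across peaks, on the log2 scale of CPM, which are counts scaled to a common library size, and peaks are not independent replicates. Promoter peaks were found for 13 of 14 dendritic cell marker genes, with a summed level of 211 to 212 CPM in P, 233 to 238 in cG and 226 to 231 in PcG. Among T cell and B cell markers, 2 of 7 and 2 of 6 had a promoter peak, and Cd3e, Cd3d, Cd3g, Lck, Cd79a, Cd79b and Pax5 were among those with none. In bulk libraries, fewer cells with an open site and a less open site in each cell cannot be told apart.

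Promoters of 7 genes are shown as examples, picked from a larger number that were searched. The 250 bases before each annotated start (RefSeq, GRCm38.p6, the assembly of mm10) are given 5′ to 3′ along the gene. Capitals mark a match, on either strand, to the core of the interferon-stimulated response element (GAAA, any 2 bases, GAAA), to the AP-1 site TGANTCA, or to the NF-kappaB consensus. Positions count back from the start. Among promoters searched but not shown, Ifit1 and Oasl1 held matches. Those of Irf7, Tnf, Il12b, Il1b, Socs3, Acod1, Irak3 and Cxcl9 held none, though some of these are called in the comparisons below. Cxcl10, on the minus strand at chr5:92348890-92349139, holds the response element core at -213 to -204, NF-kappaB matches at -159 to -150 and -103 to -94, and an AP-1 match at -74 to -68.
Cxcl10: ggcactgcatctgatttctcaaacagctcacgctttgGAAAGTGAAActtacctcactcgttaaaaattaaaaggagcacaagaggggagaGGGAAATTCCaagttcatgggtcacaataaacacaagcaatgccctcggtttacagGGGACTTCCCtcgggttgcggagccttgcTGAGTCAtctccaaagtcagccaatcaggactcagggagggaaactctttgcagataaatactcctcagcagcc
Rsad2 lies on the minus strand at chr12:26456453-26456702, with the response element core at -120 to -111 and an AP-1 match at -87 to -81.
Rsad2: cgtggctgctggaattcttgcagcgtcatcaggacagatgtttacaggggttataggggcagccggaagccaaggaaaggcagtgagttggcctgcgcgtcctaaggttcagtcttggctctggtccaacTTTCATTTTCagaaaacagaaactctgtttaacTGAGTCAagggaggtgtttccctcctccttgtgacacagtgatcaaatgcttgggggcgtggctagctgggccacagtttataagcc
Isg15 lies on the minus strand at chr4:156200819-156201068, with 3 overlapping cores from -78 to -57.
Isg15: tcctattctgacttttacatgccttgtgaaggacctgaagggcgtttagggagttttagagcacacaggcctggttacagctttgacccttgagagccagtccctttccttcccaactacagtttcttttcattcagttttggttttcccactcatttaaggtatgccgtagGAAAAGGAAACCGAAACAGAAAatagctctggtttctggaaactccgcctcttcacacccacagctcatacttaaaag
Ifnb1 lies on the minus strand at chr4:88522795-88523044, with an NF-kappaB match at -116 to -107.
Ifnb1: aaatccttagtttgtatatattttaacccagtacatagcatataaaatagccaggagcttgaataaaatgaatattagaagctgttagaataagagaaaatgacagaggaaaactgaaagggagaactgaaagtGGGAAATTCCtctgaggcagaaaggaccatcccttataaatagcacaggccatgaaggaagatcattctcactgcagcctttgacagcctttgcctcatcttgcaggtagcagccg
Il6 lies on the plus strand at chr5:30012864-30013113, with an AP-1 match at -249 to -243 and an NF-kappaB match at -44 to -35.
Il6: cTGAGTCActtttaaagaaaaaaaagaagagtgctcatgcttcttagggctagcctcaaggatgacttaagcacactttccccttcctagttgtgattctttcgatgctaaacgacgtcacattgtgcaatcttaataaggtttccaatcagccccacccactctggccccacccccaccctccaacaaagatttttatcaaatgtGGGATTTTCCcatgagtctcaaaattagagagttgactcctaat
Cxcl3, on the plus strand at chr5:90785851-90786100, and Cxcl2, on the plus strand at chr5:90903649-90903898, were the inflammatory promoters that were lower in the combination than with PAM. Their NF-kappaB matches lie at -73 to -63 and -97 to -87.
Cxcl3: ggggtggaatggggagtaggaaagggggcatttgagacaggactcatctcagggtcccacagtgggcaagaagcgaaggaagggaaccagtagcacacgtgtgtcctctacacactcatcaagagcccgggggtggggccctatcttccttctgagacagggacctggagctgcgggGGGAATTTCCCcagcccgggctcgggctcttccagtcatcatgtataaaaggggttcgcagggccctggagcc
Cxcl2: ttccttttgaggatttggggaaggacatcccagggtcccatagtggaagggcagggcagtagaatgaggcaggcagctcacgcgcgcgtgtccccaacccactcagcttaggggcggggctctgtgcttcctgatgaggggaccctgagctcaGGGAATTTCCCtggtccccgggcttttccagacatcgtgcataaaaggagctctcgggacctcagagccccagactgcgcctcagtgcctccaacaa
A match is a description of these letters and not a shown binding site, and the absence of a match says only that the letters are not in this window. Of 21262 promoters in the table, 3.35% hold the response element core, 6.99% the AP-1 letters and 4.81% an NF-kappaB match.

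Adding cGAMP to PAM changed more sites than adding PAM to cGAMP in counts of calls, a difference between the counts that was not itself tested. Of 119464 peaks tested with edgeR's quasi-likelihood test (adjusted p under 0.05), 8826 were higher in PcG than in P (7.39%) and 8776 were lower (7.35%). Against cG, 6683 peaks were higher in PcG (5.59%) and 4205 were lower (3.52%). Changes of at least 1 on the log2 scale were found for 6032 higher and 4021 lower peaks against P, and for 4891 higher and 869 lower peaks against cG. Among called peaks, the gains over cG were thus often large, and the losses mostly under 1 on the log2 scale. The lower peaks were better covered, at a median of 12.6 CPM against 3.75 for the higher peaks. Smaller changes can pass the test at better coverage, and the part of coverage in this difference was not tested. Scaling by total counts in place of TMM moved the median of all peaks to 0.108 against P and 0.0743 against cG. It gave 10997 higher and 5910 lower peaks against P, and 7707 and 1968 against cG. DESeq2's size factors gave 6886 and 3701 against cG, and offsets that depend on abundance gave 6279 and 2637.

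The counts rest on both libraries of each group. Without P replicate 1, P replicate 2, PcG replicate 1 or PcG replicate 2, the peaks called against P numbered 10872, 10207, 10098 and 9851 in place of 17602. Without cG replicate 1, cG replicate 2, PcG replicate 1 or PcG replicate 2, those called against cG numbered 5720, 5605, 6321 and 5338 in place of 10888. A group left with 1 library was assumed to vary like the other groups.

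Sites that each ligand opens were taken from libraries outside the 6. A peak was counted as cGAMP-opened when it was higher in ZcG than in Z (adjusted p under 0.05) by at least 1 on the log2 scale, which held for 3251 peaks (2.72% of those tested). PAM-opened peaks were defined in the same way from PS against S, with 1786 peaks (1.5%). Z and ZcG libraries had mitochondrial shares of 60.9% to 63.1%, and S and PS libraries 45.0% to 48.7%, so neither definition crosses the 2 levels of that share.

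At cGAMP-opened peaks the combination was as accessible, at the median, as cGAMP alone. Their median level was 1.22 and 1.16 CPM in the P libraries, 2.71 and 2.72 in cG, and 2.70 and 2.74 in PcG, against 0.983 and 1.06 in the control. The P and PcG libraries did not overlap, whereas the cG and PcG libraries did. Of the 3251 peaks, 1727 (53.1%) were higher in PcG than in P and 2 were lower, with a median log2 fold change of 1.18 against 0.01 over all peaks tested. Against cG the median was -0.03, with quartiles of -0.456 and 0.433. Over all tested peaks the quartiles were -0.326 and 0.442. Of the set, 246 peaks (7.57%) were higher in PcG than in cG, 191 (5.88%) were lower and 2814 did not pass the test. These shares lie near the 5.59% and 3.52% over all peaks.

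At PAM-opened peaks the combination stood far above cGAMP and slightly below PAM. Their median level was 4.20 and 4.48 CPM in P, 1.27 and 1.29 in cG, and 3.82 and 3.83 in PcG. Of the 1786 peaks, 1278 (71.6%) were higher in PcG than in cG and 0 were lower, with a median log2 fold change of 1.54. Over all peaks tested, 5.59% were higher and 3.52% lower than in cG. Against P, 144 (8.06%) were higher and 339 (19%) were lower, with a median of -0.187, beside 7.39% and 7.35% of all peaks. The share higher than in P thus lies near that over all peaks. The 339 lower peaks were 172 without P replicate 2, 158 without PcG replicate 1 and 185 without PcG replicate 2.

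The 59 peaks opened in both definitions were higher in the combination than in the control, P and cG libraries. Their median level was 3.2 and 3.76 CPM in P, 2.07 and 2.08 in cG, and 6.58 and 6.25 in PcG, with 0.656 and 0.965 in the control. Both PcG libraries lay above those 6. The PS libraries, which helped define the set, measured 6.84 and 7.71. Against cG, 47 of the 59 (79.7%) were higher and 0 lower (median 1.64), beside 71.6% higher among all PAM-opened peaks. Against P, 27 (45.8%) were higher and 1 was lower (median 0.64), beside 53.1% higher among all cGAMP-opened peaks. Over all peaks tested, 5.59% were higher than in cG and 7.39% higher than in P.

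**Figure D1:**
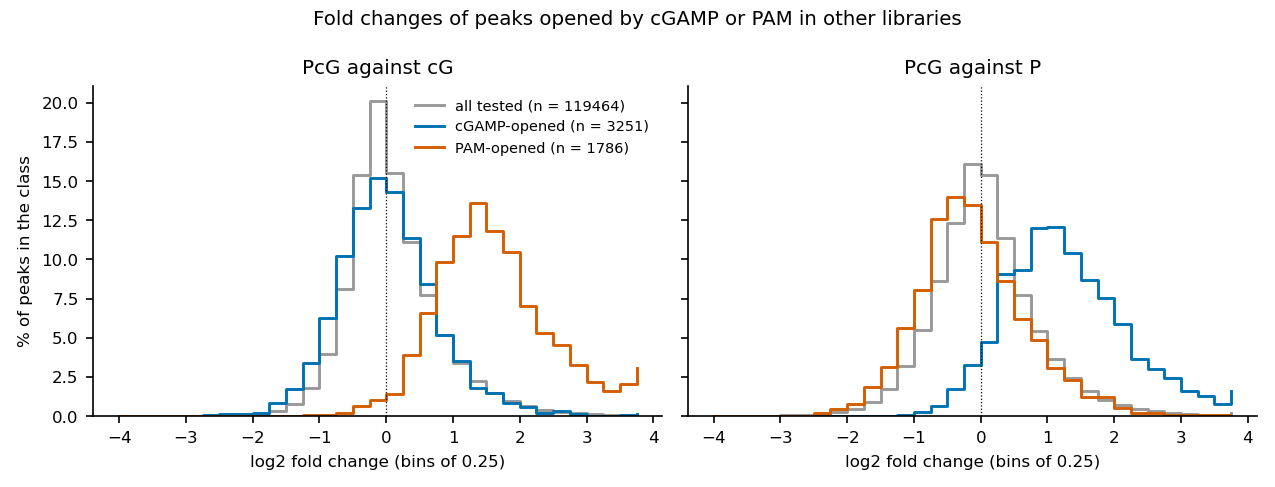
Histograms of the log2 fold change per peak in PcG against cG and in PcG against P (horizontal axes, bins of 0.25, with values past 4 or -4 counted in the outermost bins), as the percent of each set (vertical axes), for all 119464 tested peaks, 3251 cGAMP-opened and 1786 PAM-opened peaks. Against cG the cGAMP-opened peaks centre at -0.03 and the PAM-opened peaks at 1.54, and against P the medians are 1.18 and -0.187.

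Peaks that cGAMP closed were more accessible, by a small amount, when PAM was present. In ZcG, 3447 peaks (2.89%) were lower than in Z by at least 1 on the log2 scale. Their median level was 4.50 and 4.84 CPM in P, 2.15 and 2.22 in cG, and 2.65 and 2.68 in PcG. Against P, 1496 of them (43.4%) were lower in PcG and 7 were higher. Against cG, 536 (15.5%) were higher in PcG and 45 (1.31%) were lower, with a median of 0.22. Over all peaks tested, 7.39% were higher and 7.35% lower than in P. Against cG, 5.59% of all peaks were higher and 3.52% lower, with a median of -0.00946. The PcG libraries thus lay between those of the single ligands and nearer to cGAMP.

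The 246 raised and 191 blunted cGAMP-opened peaks were then followed in libraries that had not been used to choose them. The 246 peaks were 142, 147, 137 and 146 when PcG replicate 1, PcG replicate 2, cG replicate 1 or cG replicate 2 was left out, and the 191 were 90, 92, 100 and 79. In PS against S, 76 of the raised peaks were higher (30.9%) and 0 lower, beside 2.44% and 0.492% of all peaks, and 216 of the 246 fold changes were above 0. In PH against H, 149 were higher (60.6%) and 0 lower, beside 5.28% and 2.27% of all peaks, and 231 fold changes were above 0. In both settings the share called higher lay above that of all peaks. In PScG against ScG, 46 were higher (18.7%) and 3 lower, beside 2.11% and 2.42%, and 198 fold changes were above 0. In PL against L, 50 were higher (20.3%) and 0 lower, beside 0.765% and 0.362%, and 224 fold changes were above 0.

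Few of the blunted peaks passed the test in those libraries. In PS against S, 0 were higher and 5 lower (2.62%, beside 0.492% of all peaks), and 151 of 191 fold changes were below 0. In PH against H, 0 were higher and 18 lower (9.42%, beside 2.27%), with 159 below 0. PScG against ScG gave the same counts of 0 and 18 (9.42%, beside 2.42%), with 162 below 0. In PL against L, 1 was higher and 5 were lower (2.62%, beside 0.362%), with 116 below 0 and a median of -0.0939, against medians of -0.25, -0.316 and -0.393 in PS, PH and PScG. ScG libraries had mitochondrial shares of 57.3% and 61.5% and PScG libraries 45.7% and 44.4%, so in that comparison this difference and the addition of PAM cannot be told apart, while the S and PS libraries had 45.0% to 48.7% the H and PH libraries 48.7% to 53.4%, and the L and PL libraries 44.1% to 53.8%.

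**Figure D2:**
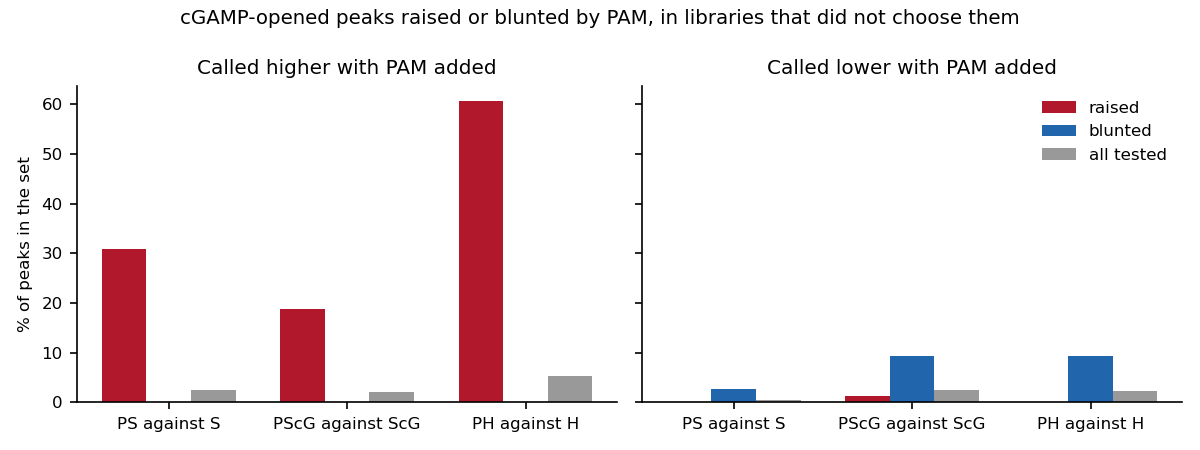
Percent of peaks called higher or lower (vertical axis) when PAM was added to SeV (PS against S), to SeV with cGAMP (PScG against ScG) and to HMW (PH against H), for the 246 raised, 191 blunted and all tested peaks. Raised peaks were called higher in 30.9%, 18.7% and 60.6%, and blunted peaks lower in 2.62%, 9.42% and 9.42%.

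Among the raised peaks the 8 highest by fold change lay near Ptpn2, Fmn1, Vti1a, Zfp811, Tanc1, Slc24a3, Denr and Dcbld2, with log2 fold changes over cG from 2.21 to 3.29. The peak near Ptpn2, a phosphatase that restrains JAK and STAT signals, lies 1343 bases outside the gene at 18:67725975. It measured 3.81 and 3.32 CPM in P, 1.43 and 0.43 in cG, and 8.77 and 9.25 in PcG, a rise over cG of 3.29 ± 0.335 (SE, adjusted p = 1.34e-15, edgeR). A peak inside Dcbld2 at 16:58433117 measured 1.60 and 1.81 in P, 1.51 and 1.36 in cG, and 6.52 and 6.82 in PcG. Each of these 2 sites was higher in both PcG libraries than with either ligand alone. A peak 584 bases from the start of Zfp811, a zinc finger gene, measured 23.7 and 23.9 in P, 3.02 and 3.65 in cG, and 20 and 21.8 in PcG, so there the combination lay just under PAM.

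The 8 blunted peaks of largest fold change lay in or near Rasa3, Myo18b, Tnfrsf1a, Cdyl2, Chd9, Ghr, Zup1 and Pax4, with log2 fold changes from -2.26 to -1.49. Inside Rasa3, a GTPase-activating protein for Ras and Rap, the peak at 8:13619878 measured 0.61 and 0.144 CPM in P, 8.99 and 6.59 in cG, and 1.63 and 1.59 in PcG, a fall of 2.26 on the log2 scale against cG (SE 0.359, adjusted p = 3.62e-07, edgeR). It was still higher in PcG than in P by 2.09, a call that was lost without P replicate 2 (1.39). Inside Tnfrsf1a, which encodes the TNF receptor TNFR1, the peak at 6:125359999 measured 2.14 and 2.67 in P, 5.65 and 5.30 in cG, and 1.89 and 1.47 in PcG, so the combination lay just under PAM and both cG libraries stood apart. A peak 230 bases from Ghr, the growth hormone receptor gene, measured 0.839 and 0.722 in P, 7.32 and 7.52 in cG, and 2.70 and 2.49 in PcG.

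Sites at interferon genes followed cGAMP, and at some of them the level was lower when PAM was present. At the Cxcl10 promoter peak (5:92344162-92349984, which also overlaps Art3), a chemokine that draws activated T cells, the P libraries measured 25.6 and 20.3 CPM, the cG libraries 77.6 and 79.0, and the PcG libraries 54.4 and 54.3. The combination lay above PAM by 1.24 ± 0.107 (SE, adjusted p = 2.04e-20, edgeR) and below cGAMP by -0.53 ± 0.099 (adjusted p = 2.69e-05), and no group overlapped another. Across the body of Rsad2, which encodes the antiviral enzyme viperin, a wide peak (12:26438731-26453446) measured 31.4 and 34.7 in P, 146 and 180 in cG, and 123 and 127 in PcG. There the combination was higher than PAM by 1.92 ± 0.0946 (adjusted p = 4.62e-46) and lower than cGAMP by -0.38 ± 0.0866 (adjusted p = 0.000817), the latter lost without cG replicate 2 (-0.22) and with abundance-dependent offsets (-0.17). The separate Rsad2 promoter peak measured 28.3 and 28.2 in PcG against 32.1 and 30.7 in cG, a difference of -0.15 that did not pass the test, and was higher than PAM by 0.89 (adjusted p = 1.86e-08).

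Ifnb1, the gene for interferon-beta, showed the same order at a low level. The peak over its start (4:88522158-88523152) measured 1.37 and 2.02 CPM in P, 5.17 and 5.66 in cG, and 1.89 and 3.38 in PcG. The combination was lower than cGAMP by -1.06 ± 0.296 (adjusted p = 0.00938, edgeR), a call that was lost without PcG replicate 1 (-0.68) or cG replicate 2 (-0.99), and its difference from PAM was 0.60 ± 0.343 (adjusted p = 0.246). A second Ifnb1 peak, 888 bases from the start, measured 1.22 and 1.30 in P, 8.04 and 8.46 in cG, and 5.96 and 4.65 in PcG. It rose over PAM by 2.07 ± 0.303 (adjusted p = 1.98e-08), and the difference from cGAMP was -0.63 ± 0.227 (adjusted p = 0.0625).

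**Figure D3:**
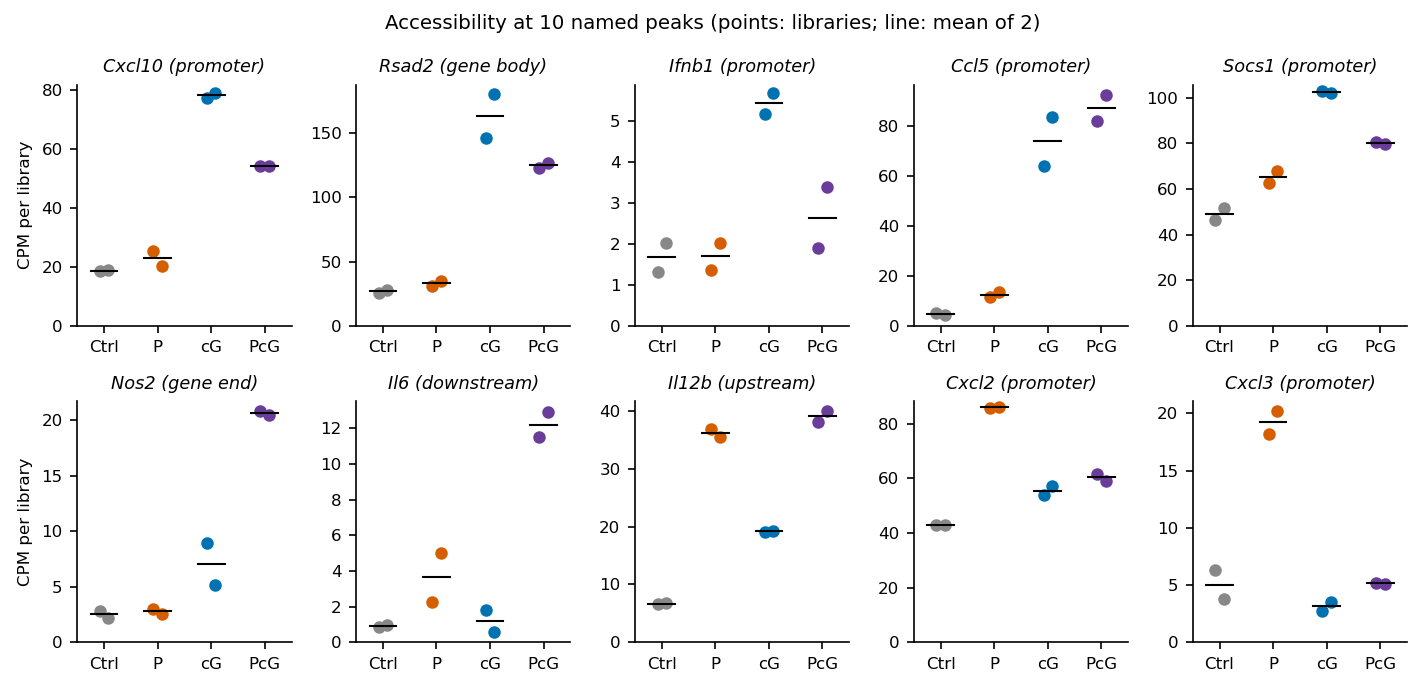
Level in CPM (vertical axes) of 10 peaks in the Ctrl, P, cG and PcG libraries (horizontal axes), where points are libraries and lines the mean of 2. The Cxcl10 promoter is lower in PcG (54.4 and 54.3) than in cG (77.6 and 79.0), and the Il6 downstream peak (11.5 and 12.9) and the Nos2 gene end (20.8 and 20.5) are highest in PcG.

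Of 36 interferon-stimulated genes, covered by 35 promoter peaks because Tap1 and Psmb9 share one, 25 were higher in PcG than in P and 0 were lower, with a median log2 fold change of 0.58. Of all promoter peaks 6.03% were higher and 6.38% lower. The 25 were Bst2, Cmpk2, Cxcl10, Gbp2, Gbp3, Gbp5, Ifi44, Ifit1, Ifit2, Ifit3, Igtp, Iigp1, Irgm1, Isg15, Mx1, Mx2, Oas3, Oasl1, Oasl2, Parp14, Psmb8, Psmb9 with Tap1, Rsad2, Slfn5 and Xaf1. Against cG, 1 was higher and 10 were lower, with a median of -0.227. The lower ones included Cmpk2, Cxcl10, Cxcl11, Ifi44, Iigp1, Mx1, Oas2, Oas3 and Parp14, and the count was 4 without PcG replicate 1, PcG replicate 2 or cG replicate 2. The Parp14 call (-0.29) was lost when any single library of PcG or cG was left out (-0.36 to -0.23). Well-covered promoters as a whole also tended to be lower: of 4605 promoter peaks with a mean of at least 20 CPM, 18% were lower than in cG, with a median of -0.187. Of all promoter peaks 9.82% were lower, and the housekeeping promoters had a median of -0.221. The list also holds promoters under 20 CPM, such as Ifi44, Iigp1, Oas2 and Cxcl9.

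Single genes of the list differed in how much of the cGAMP level they kept. Isg15, a ubiquitin-like modifier, measured 12.5 and 12.1 CPM in P, 27.1 and 27.9 in cG, and 24.9 and 24.7 in PcG, with a difference from cG of -0.15 ± 0.126 (adjusted p = 0.525, edgeR). Oasl1, of the oligoadenylate synthetase family, measured 12.3 and 14.7 in P, 45.7 and 54.1 in cG, and 42.9 and 44.6 in PcG, which is a rise of 1.69 over P and a difference of -0.19 from cG (adjusted p = 0.276). For these genes the combination lay close to cGAMP. Ifi44 measured 1.91 and 2.17 in P, 10.7 and 7.88 in cG, and 5.30 and 3.89 in PcG, a fall of 1.00 against cG (SE 0.241, adjusted p = 0.00196). Iigp1, an immunity-related GTPase, measured 0.687 and 0.289 in P, 7.56 and 7.60 in cG, and 3.06 and 2.93 in PcG, a fall of 1.33 (SE 0.309, adjusted p = 0.00107). At both genes PcG lay between the single ligands with no overlap. At Oas2 the PcG level was 9.33 and 9.76 beside 8.32 and 8.67 in P and 14.2 and 17.0 in cG. Cxcl9, a chemokine close to Cxcl10, was the one promoter of the list higher in PcG, at 3.01 and 4.21 against 1.35 and 1.79 in cG (log2 fold change 1.18, adjusted p = 0.041), and this call was lost when any single library of PcG or cG was left out (0.93 to 1.41).

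Of 15 genes for sensors and factors that lead to interferon, 6 were higher in PcG than in P, beside 6.03% of all promoter peaks. They were Ddx58 (RIG-I), Ifnb1, at the peak 888 bases from its start, Irf7, Tlr3, Trex1 and Zbp1, with a list median of 0.226. Trex1 (0.27) was lost in 6 settings, among them without P replicate 2 (0.21) or PcG replicate 2 (0.18). Irf7, a factor that amplifies interferon, measured 24.9 and 21.5 CPM in P, 39.6 and 39.3 in cG, and 30.5 and 33.0 in PcG, with PcG higher than P by 0.45 (adjusted p = 0.00349, edgeR), a call lost without P replicate 2 (0.35) or PcG replicate 2 (0.40). Against cG, 0 were higher and 2 were lower (median -0.277): Ifih1, which encodes the RNA sensor MDA5, at -0.43 (adjusted p = 0.00154), lost without PcG replicate 2 (-0.34) and with abundance-dependent offsets (-0.27), and the nuclease gene Trex1 at -0.28 (adjusted p = 0.0461). The Trex1 call was lost in 10 settings, among them without PcG replicate 1 (-0.19), cG replicate 1 (-0.32) or cG replicate 2 (-0.23), with total-count scaling (-0.19) and with abundance-dependent offsets (-0.08). Over all promoter peaks 1.3% were higher and 9.82% lower than in cG. The promoters of Sting1, Tbk1, Irf3 and Cgas, the core of the cGAMP pathway, did not pass the test in either comparison. The kinase gene Tbk1 measured 82.1 and 71.2 in P, 87.7 and 93.0 in cG, and 87.9 and 89.6 in PcG.

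Some inflammatory promoters were higher with both ligands than with cGAMP alone, and most did not pass the test. Of 32 promoter peaks for 33 of 34 cytokine and mediator genes (Ccl3 and Ccl4 share a peak), 9 were higher in PcG than in cG, 0 were lower and 23 did not pass, with a median of 0.366. Over all promoter peaks 1.3% were higher and 9.82% were lower. The 9 were Csf3, Cxcl5, Edn1, Il1a, Il6, Lcn2, Nos2, Ptgs2 and Saa3. Against P, 9 were higher (Ccl5, Cxcl16, Edn1, Il15, Il1rn, Il27, Il6, Nos2 and Ptgs2) and 2 were lower (Cxcl2 and Cxcl3), with a median of 0.137, beside 6.03% and 6.38% of all promoter peaks. Edn1, Il6, Nos2 and Ptgs2 stand in both lists of higher promoters.

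Il6, the gene for interleukin 6, was the clearest case, in its promoter and downstream. The promoter peak (5:30012594-30013781) measured 6.88 and 8.88 CPM in the control, 19.9 and 20.7 in P, 16.8 and 18.2 in cG, and 28.0 and 28.8 in PcG. It was higher in PcG than in P by 0.49 ± 0.133 (adjusted p = 0.00524, edgeR) and than in cG by 0.70 ± 0.136 (adjusted p = 5.37e-05). A peak 1276 bases past the gene (5:30021251-30023211) measured 2.29 and 4.98 in P, 1.83 and 0.573 in cG, and 11.5 and 12.9 in PcG, with 0.874 and 0.965 in the control. There the differences were 1.74 ± 0.263 over P (adjusted p = 7.57e-08) and 3.37 ± 0.316 over cG (adjusted p = 1.8e-17), and both PcG libraries lay far above the other 6. Its neighbour 32 bases past the gene (5:30020007-30021085) measured 2.44 and 2.02 in P, 0.318 and 0 in cG, and 5.71 and 5.10 in PcG. Its rise over P of 1.28 was lost without P replicate 2 (1.15).

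Ptgs2, which encodes the prostaglandin enzyme COX-2, and Nos2, which encodes inducible nitric oxide synthase, were also highest in the combination. The Ptgs2 promoter measured 16.2 and 16.6 CPM in P, 16.4 and 15.2 in cG, and 25.7 and 22.6 in PcG, higher by 0.56 and 0.62 (adjusted p = 0.00229 and 0.00121, edgeR). The P and cG libraries overlapped each other, and PcG stood above both. A peak 19 bases past Ptgs2 (1:150108253-150109109) measured 1.07 and 2.24 in P, 0.477 and 0 in cG, and 4.59 and 4.46 in PcG, and its rise over P of 1.44 was lost without P replicate 1 (1.01). The peak at the end of Nos2 (11:78959292-78963606, which reaches the end of Lgals9) measured 2.84 and 2.22 in the control, 2.98 and 2.60 in P, 8.99 and 5.16 in cG, and 20.8 and 20.5 in PcG. With PAM alone this site overlapped the control, and the combination was higher than cGAMP alone by 1.56 ± 0.187 (adjusted p = 1.41e-11) and than PAM by 2.89 ± 0.215 (adjusted p = 4.23e-25). The Nos2 promoter measured 7.10 and 9.75 in P, 9.07 and 10.0 in cG, and 13.6 and 15.5 in PcG.

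Another group of inflammatory promoters, with single peaks at Il1b and Il12b, followed PAM and took no further rise from cGAMP. Lcn2, which encodes the iron-binding protein lipocalin 2, measured 10.4 and 11.3 CPM in P, 1.99 and 1.43 in cG, and 8.56 and 10.6 in PcG (2.48 over cG, adjusted p = 2.95e-14, edgeR). Saa3, an acute-phase gene, measured 4.50 and 5.78, 0.637 and 0.932, and 4.64 and 5.16 in the same order of groups. Csf3, the gene for G-CSF, measured 4.65 and 4.48, 0.557 and 0.215, and 3.47 and 2.68. In these genes PcG was within or near the range of P, and none passed the test against P. A peak in the body of Il1b, the gene for interleukin 1 beta, measured 5.11 and 5.56 in P, 1.43 and 0.358 in cG, and 4.89 and 3.95 in PcG, a rise of 2.33 ± 0.398 over cG (adjusted p = 2.81e-06). A peak 9330 bases upstream of Il12b, the gene for the shared p40 subunit of interleukins 12 and 23, measured 36.9 and 35.5, 19.1 and 19.3, and 38.0 and 40 in that order, with 6.56 and 6.85 in the control. Il12b was higher there than with cGAMP by 1.02 ± 0.121 (adjusted p = 4.17e-12) and differed from PAM by 0.11 (adjusted p = 0.581). By contrast, a peak 2325 bases from Il10, the gene for an anti-inflammatory cytokine, measured 2.29 and 1.88, 2.07 and 2.58, and 4.43 and 5.87, higher by 1.30 and 1.13 (adjusted p = 0.00334 and 0.0164). The Il10 call against P was lost without P replicate 2 (1.16) or PcG replicate 2 (1.09), and that against cG without PcG replicate 2 (0.92), cG replicate 1 (0.99) or cG replicate 2 (1.31).

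The Ccl5 promoter and Il27 followed cGAMP. The Ccl5 promoter peak (11:83521831-83527834), at a chemokine gene for T cells and monocytes, measured 11.4 and 13.5 CPM in P, 64.3 and 83.6 in cG, and 82.2 and 92.4 in PcG. The combination exceeded PAM by 2.81 ± 0.119 (adjusted p = 6.06e-51, edgeR) and differed from cGAMP by 0.24 ± 0.101 (adjusted p = 0.13), and the cG and PcG libraries overlapped. Another peak at the Ccl5 locus (11:83536008) was higher in PcG than in cG by 0.66. That call was lost without PcG replicate 1 (0.75), PcG replicate 2 (0.57) or cG replicate 2 (0.44), and at adjusted p under 0.01. Il27, which encodes the p28 subunit of interleukin 27, measured 2.90 and 4.33 in P, 14.2 and 12.0 in cG, and 8.05 and 10.9 in PcG.

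Cxcl2 and Cxcl3, chemokine genes that draw neutrophils, were the inflammatory genes lower in the combination than with PAM. The Cxcl3 promoter peak (5:90785601-90786628) measured 6.34 and 3.76 CPM in the control, 18.2 and 20.2 in P, 2.78 and 3.51 in cG, and 5.20 and 5.10 in PcG, a fall of 1.90 against P (SE 0.227, adjusted p = 5.58e-12, edgeR). The Cxcl2 promoter peak (5:90902942-90907471) measured 42.9 and 43.1 in the control, 85.8 and 86.2 in P, 53.8 and 57.3 in cG, and 61.7 and 59.1 in PcG, a fall of 0.51 against P (SE 0.0947, adjusted p = 1.41e-05). Neither passed the test against cG (adjusted p = 0.0783 and 0.501). At both promoters the PcG libraries lay near cGAMP and apart from PAM. Promoter levels of the neutrophil markers Camp and S100a8 summed to 43.7 to 51.9 in P, 22.1 to 26.7 in cG and 33.8 to 36.8 in PcG, while Elane, Mpo, Ly6g, Cxcr2 and S100a9 had no promoter peak. Macrophage and monocyte markers (8 of 8 genes) summed to 170 to 175, 153 to 163 and 142 to 149. The part of these markers in the inflammatory results was not tested.

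Within the loci of these lists, the peaks opened by each ligand in other libraries were counted. Of 317 peaks at interferon-stimulated loci, 30 were cGAMP-opened, at 16 genes: 27 were higher in PcG than in P, and against cG 0 were higher and 7 lower. Of 285 peaks at inflammatory loci, 21 were cGAMP-opened, at 9 genes: 16 were higher than in P, and against cG 5 were higher and 0 lower. A further 27 inflammatory peaks, at 14 genes, were PAM-opened: 19 were higher in PcG than in cG and 0 lower, and against P 8 were higher and 1 lower. Over all cGAMP-opened peaks 53.1% were higher than in P, and against cG 7.57% were higher and 5.88% lower. Over all PAM-opened peaks 71.6% were higher than in cG, and against P 8.06% were higher and 19% lower. The difference between the lists was not tested.

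Of 22 promoters of TLR2 pathway and NF-kappaB genes, 1 was higher (Rela) and 3 were lower (Cd14, Irak3 and Traf6) in PcG than in P, beside 6.03% and 6.38% of all promoter peaks. Cd14, a co-receptor of TLR2 and TLR4 that also marks monocytes, measured 43.9 and 44.1 CPM in P, 18.8 and 21.4 in cG, and 25.5 and 22.9 in PcG (-0.86, adjusted p = 9.38e-09, edgeR). Irak3, a kinase-like brake on TLR signalling, measured 43.7 and 44.1, 26.3 and 29.5, and 33.0 and 28.6 (-0.51, adjusted p = 0.000543), and the call was lost without PcG replicate 2 (-0.41). At both genes the PcG libraries lay closer to cG than to P. Against cG, Nfkb2 was higher and Bcl3 and Nfkbie were lower, beside 1.3% and 9.82% of all promoter peaks. Nfkb2 (0.32) was called neither without PcG replicate 2 (0.24) nor without cG replicate 1 (0.31) or cG replicate 2 (0.32), and Nfkbie (-0.28) was lost when any single library of PcG or cG was left out (-0.31 to -0.25).

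Feedback regulators did not move alike. Socs1, an inhibitor of JAK kinases, measured 62.6 and 67.7 CPM in P, 103 and 102 in cG, and 80.5 and 79.8 in PcG, between the single ligands with no overlap. It was higher than PAM by 0.30 (adjusted p = 0.0137, edgeR), which was lost without P replicate 1 (0.24), PcG replicate 1 (0.29) or PcG replicate 2 (0.31). It was lower than cGAMP by -0.36 (adjusted p = 0.0031), which was lost with total-count scaling (-0.27) and with abundance-dependent offsets (-0.16). Socs3, an inhibitor of interleukin 6 receptor signals, measured 43.7 and 41.7 in P, 29.0 and 31.7 in cG, and 44.1 and 55.0 in PcG, a rise of 0.70 over cG (adjusted p = 1.81e-07). Of 17 feedback genes, 4 were higher than in P (Cish, Dusp1, Dusp5 and Socs1) and 0 lower, beside 6.03% and 6.38% of all promoter peaks. Cish (0.36) was lost without P replicate 1 (0.31) or PcG replicate 1 (0.31). Against cG, 1 was higher (Socs3) and 2 were lower (Socs1 and Sh2b3), beside 1.3% and 9.82%. Sh2b3 (-0.28) was lost when any single library of PcG or cG was left out (-0.30 to -0.26), with total-count scaling (-0.19) and with abundance-dependent offsets (-0.08).

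Among 16 dendritic cell maturation genes, 4 were higher in PcG than in P (Cd274, which encodes PD-L1, Cd40, Fscn1 and H2-K1) and 0 lower, beside 6.03% and 6.38% of all promoter peaks. Cd40, a co-stimulatory receptor, measured 22.4 and 25.1 CPM in P, 34.1 and 32.5 in cG, and 40.3 and 32.7 in PcG (0.62, adjusted p = 2.16e-05, edgeR). Cd274 measured 26.4 and 24.9, 43.6 and 41.9, and 40.6 and 38.1, so PcG lay just under cG. Against cG, Fscn1 was higher and H2-K1 lower, beside 1.3% and 9.82% of all promoter peaks. Of 24 genes for AP-1, IRF, STAT and C/EBP factors, 5 were higher in PcG than in P (Cebpb, Fosb, Irf1, Jund and Maff). The 3 lower were Cebpd, Jun and Junb, and over all promoter peaks 6.03% were higher and 6.38% lower. Junb (-0.26) was lost in 9 settings, among them every omission of a P or PcG library (-0.32 to -0.19), total-count scaling (-0.16) and abundance-dependent offsets (-0.22). Against cG, 0 were higher and 9 were lower, beside 1.3% and 9.82% of all promoter peaks: Cebpa, Cebpd, Irf1, Irf2, Irf4, Irf5, Jun, Junb and Stat6, with a list median of -0.252 beside -0.187 over well-covered promoters. Jun measured 119 and 116 in P, 113 and 122 in cG, and 95.7 and 92.8 in PcG, under both single ligands by -0.32 and -0.31 (adjusted p = 0.00312 and 0.00551), calls lost with total-count scaling (-0.22 and -0.23) and without PcG replicate 2 (-0.29 for each), and against cG also with abundance-dependent offsets (-0.09) or without cG replicate 2 (-0.26). Of 12 housekeeping genes, with 11 promoter peaks, 0 were called in either comparison by edgeR, and the medians were -0.0272 against P and -0.221 against cG.

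**Figure D4:**
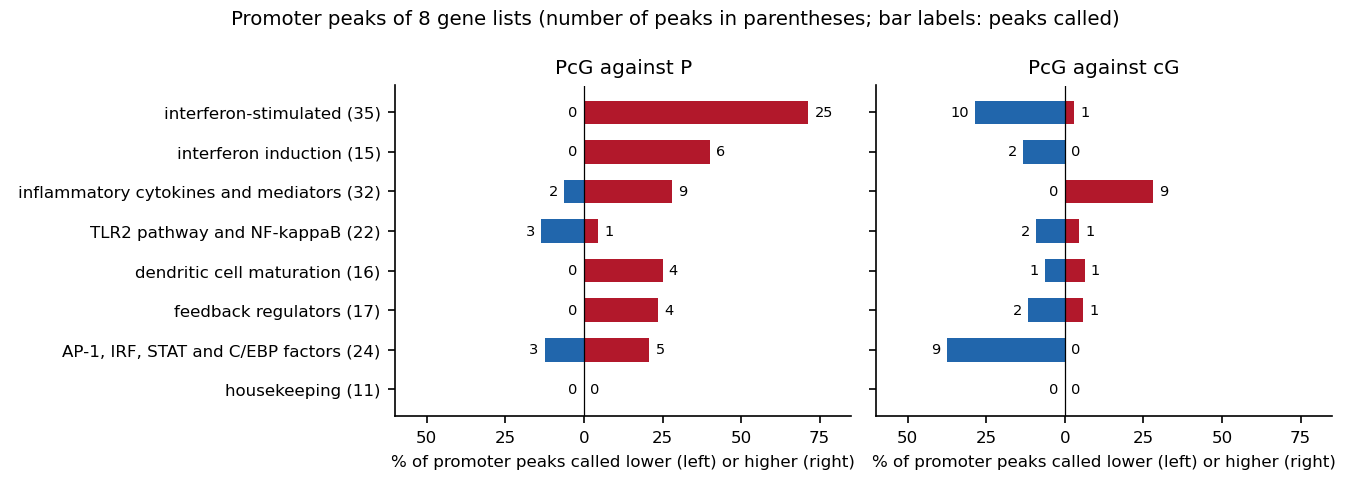
Percent of promoter peaks called lower and higher in PcG against P and in PcG against cG (horizontal axis) for the 8 gene lists (vertical axis). Interferon-stimulated promoters were higher than with PAM in 25 of 35 and lower than with cGAMP in 10 of 35, and inflammatory promoters were higher than with cGAMP in 9 of 32.

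The sites that PAM raised over cGAMP and those that it lowered differed in where they lay. Among 6453 higher peaks on chromosomes with annotated starts, 2.53% lay within 1 kb of a start, with a median width of 566 bases. Among 4042 lower peaks, 30.4% did, with a median width of 929 bases, beside 10.9% and 451 bases for all peaks. The lower peaks were also better covered, with a median of 12.6 CPM against 3.75 for the higher peaks and 2.12 for all. Depth of coverage moves with this difference: among the 8486 peaks of at least 20 CPM, at any position, 4.44% were higher and 16.9% lower, and its part was not tested. For PcG against P the shares near a start were 8.87% for higher and 9.51% for lower peaks. Of the raised and blunted cGAMP-opened peaks, 5 of 236 (2.12%) and 4 of 182 (2.2%) lay within 1 kb of a start, so both kinds were largely outside promoters.

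The response element core was present in 8.57% of 770 promoters with a peak higher in PcG than in P, in 1.71% of the 821 lower ones, and in 3.23% of all 12072 promoters with a tested peak. Of the same 770 promoters 7.79% held AP-1 letters and 8.44% an NF-kappaB match. Of the 88 promoters higher in PcG than in cG, 19.3% held AP-1 letters and 12.5% an NF-kappaB match, against 4.95% and 5.52% of all with a tested peak, and 4.55% held the response element core. The PU.1 letters GAGGAAGT were found in 3.42% of all promoters with a peak and in 2.47% to 4.63% of those called in either comparison. The interferon-stimulated list held the response element core in 53.1% of 32 promoters, AP-1 letters in 31.2% and an NF-kappaB match in 12.5%. AP-1 and NF-kappaB letters were thus not particular to promoters higher in PcG than in cG. These are shares of letters in fixed windows, and no test was made of them.

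The interaction asks whether the effect of cGAMP in the presence of PAM equals its effect on unstimulated cells, as the log2 value of PcG minus P minus cG plus Ctrl, which is 0 when the 2 effects multiply. It was above 0 at 1305 peaks (1.09%) and below 0 at 2597 (2.17%). Total-count scaling, which moved the median of all peaks to -0.226, gave 622 and 6012. Without Ctrl replicate 1, P replicate 2, PcG replicate 1 or cG replicate 2 the 3902 calls were 2525, 2370, 2452 and 2156. Against the control, 11.1% of peaks were higher and 9.45% lower in P, and 11.6% were higher and 11.6% lower in cG, and 31 of the 35 interferon-stimulated promoters were higher in cG against 2 higher and 3 lower in P. The control libraries have the higher mitochondrial share, so this difference and the ligand effects cannot be told apart here.

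Values below 0 at list promoters were mostly of 2 kinds. Tnf, Acod1 and Il23a measured alike in P, cG and PcG and lower in the control. Tnf measured 23.3 and 22.0 CPM in the control, 48.9 and 59.8 in P, 55.0 and 61.6 in cG, and 61.7 and 62.2 in PcG, with an interaction of -1.18 (adjusted p = 2.11e-10, edgeR). Il23a measured 10.1 and 11.9, 28.2 and 30.0, 24.9 and 26.3, and 23.6 and 26.5 in that order, with an interaction of -1.44 (adjusted p = 9.26e-09). In the other kind the combination lay under one of the ligands, as at Cxcl10 (-0.81), Socs1 (-0.76), Cxcl2 (-0.88) and Cxcl3 (-1.24). The Cxcl3 value was lost without Ctrl replicate 2 (-0.90), P replicate 2 (-1.16), either PcG library (-1.25 and -1.22) or cG replicate 2 (-1.05). Of the 35 interferon-stimulated promoters, 0 were above 0 and 4 below (Cxcl10, Gbp5, Iigp1 and Stat2), and of the 32 inflammatory promoters 0 were above and 7 below (Acod1, Ccl3 with Ccl4, Ccl5, Cxcl2, Cxcl3, Il23a and Tnf). Of all promoter peaks 1.11% were above and 1.58% below. Stat2 (-0.56) was lost in 7 of the 18 settings tried and Ccl3 (-0.58) in 8. Iigp1 (-3.47) was lost without Ctrl replicate 2 (-2.45) or P replicate 1 (-2.75), and at adjusted p under 0.01. Gbp5 (-0.95) was lost without cG replicate 2 (-0.62) and with libraries thinned to 1 depth (-0.69).

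Of 285 peaks at loci of the inflammatory list, 4 were above 0 and 29 below, beside 1.09% and 2.17% of all peaks tested. The count above 0 thus lies near the share over all peaks. The 4 included the end of Nos2 and a peak inside Il12b. The Nos2 value was 1.41 ± 0.368 (adjusted p = 0.0112, edgeR) and was lost without Ctrl replicate 1 (1.21), P replicate 2 (1.31) or cG replicate 2 (1.05). The Il12b peak (11:44414669) measured 10.4 and 10.8 CPM in the control, 4.27 and 3.18 in P, 3.34 and 3.01 in cG, and 6.42 and 6.82 in PcG, with an interaction of 2.57 (adjusted p = 2.81e-07), so its highest level was in the control. This Il12b peak was higher in PcG than in P by 0.83, lost without P replicate 2 (0.63), PcG replicate 1 (0.87) or PcG replicate 2 (0.79). The rise over P was also lost at adjusted p under 0.01. Its rise over cG was lost without PcG replicate 2 (1.02) or cG replicate 2 (0.98). Inside Sox5 a peak at 6:144672375 measured 0.546 and 0.675 CPM in the control, 1.07 and 0.939 in P, 0.875 and 0.287 in cG, and 6.27 and 6.57 in PcG. It was higher than PAM by 2.67 (adjusted p = 1.35e-08) and than cGAMP by 3.47 (adjusted p = 2.29e-11), so this site was high in the combination and near the control with each ligand. Its interaction of 2.78 (adjusted p = 0.0212) was lost without Ctrl replicate 1 (2.89), Ctrl replicate 2 (2.61), P replicate 2 (2.69) or cG replicate 2 (2.16). At Hs3st1 and Diaph3, by contrast, P, cG and PcG were all low and the control was high, at 22.0 and 22.2 CPM for Hs3st1 against 2.21 to 4.73 in the 6 libraries.

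The largest single differences lay mostly in gene bodies outside the lists. Against P the 6 highest were near Pax4, Gnal, Rnf213, Bank1, Chd9 and Kalrn. Inside Bank1, a B cell and myeloid adaptor gene, the peak at 3:136146080 measured 0.229 and 0.144 CPM in P, 4.93 and 3.15 in cG, and 3.93 and 3.19 in PcG, a rise of 4.20 ± 0.539 over P (adjusted p = 1.4e-10, edgeR). Inside Kalrn, a guanine nucleotide exchange factor gene, the peak at 16:34198492 measured 0.305 and 0.144 in P, 7.80 and 8.46 in cG, and 3.82 and 3.76 in PcG. PcG thus kept less of the cGAMP level at Kalrn than at Bank1, a difference between the genes that was not tested. The Kalrn call against cG was lost without PcG replicate 1 (-1.11), PcG replicate 2 (-1.09) or cG replicate 2 (-1.04). At Pax4 the P libraries held 1 and 0 counts and the PcG libraries 21 and 40, a ratio of 46.6 with a 95% exact interval of 8.05 to 1870 for counting error only.

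The lowest against P included Crebzf, Lyz2, Dctn4, Slc32a1 and Lox. A peak 968 bases from Lyz2, the lysozyme gene of myeloid cells, measured 21.3 and 16.1 CPM in the control, 12.9 and 22.0 in P, 1.51 and 4.66 in cG, and 1.63 and 2.23 in PcG, a fall of 3.18 against P (SE 0.289, adjusted p = 2.77e-18, edgeR). At Lox, the lysyl oxidase gene, a peak at 18:52529037 measured 5.14 and 5.60 in the control, 28.7 and 25.9 in P, 5.97 and 6.09 in cG, and 4.84 and 5.80 in PcG. At Lox the cG and PcG libraries lay at the control level and only the P libraries stood apart. The Crebzf value rests on P replicate 2 alone (0.61 and 21.8 in P), and was -0.59 without it.

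Against cG the 6 highest were near Acpp, Shroom4, Il6, Polr3b, Zfp558 and Ptgs2. Inside Acpp the cG libraries held 0 counts and the PcG libraries 117 and 101, at least 54.6-fold higher when 3 counts over the cG group are taken as the limit. At Shroom4, again with 0 counts in cG, the bound was at least 19-fold. Inside Zfp558 the peak at 9:18456384 measured 11.2 and 10.2 CPM in P, 0.398 and 0.502 in cG, and 8.82 and 9.12 in PcG, a rise of 4.28 ± 0.36 (adjusted p = 2.74e-21, edgeR). At these sites the P libraries were open too. The lowest included Rasa3, Actr6, Chchd6, Ttyh2 and Myo18b. Inside Ttyh2 the peak at 11:114684452 measured 1.68 and 1.73 in P, 10.4 and 7.88 in cG, and 2.60 and 2.10 in PcG, so at this site PAM kept the level near its own.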

How the data were processed

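Accessibility was measured by ATAC-seq in 36 libraries of 18 groups of 2. The authors deposited a table of raw counts per peak, whole numbers for 119751 peaks shared by all libraries, with the peak positions. Per the submitters' processing notes, Bowtie2 2.2.9, MACS2 (listed as 1.4), bedtools and featureCounts were used with mm10. The labels' protocols give 12 PCR cycles and 42 read cycles. The handling of duplicates, read shifts and pooling before peak calling is not given in the sources used here. Amplified reads carry no molecular identifiers, so intervals cover counting error only.

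Groups came from the sample titles. The members and lists were chosen with earlier results of these data known. The mitochondrial peak was left out, and filterByExpr (minimum count 10) dropped 286 peaks. Counts were scaled by TMM and fitted with edgeR 4.0.16 (R 4.3.3) by quasi-likelihood over all 36 libraries, with a trended dispersion and 18 residual degrees of freedom. P-values were adjusted by Benjamini-Hochberg over 119464 peaks. With 2 against 2 libraries, an exact permutation test cannot go below p = 0.333, so single values got none. CPM values use TMM sizes. Tables were summarised in Python 3.11.15 with pandas 2.3.3. The scripts were tested on simulated data.

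A gene's promoter peak is its most covered peak within 1 kb of a RefSeq start (GRCm38.p6), and of either end of the gene where no start was in the table, as on chromosome 18. Named peaks are the 6 highest and 6 lowest called peaks of each comparison (mean of at least 2 CPM, groups not overlapping, within 10000 bases of a protein-coding gene, 1 per gene), the 8 highest and 8 lowest cGAMP-opened peaks, the 4 most covered promoters of each list with those called in the interaction, and the peaks of lowest p at 12 loci. Some items that meet these rules are not reported here. Other list members shown with values were chosen after their values were seen. Marker lists not described with the results were NK cell (2 of 3 genes with a promoter peak; summed CPM 15.2 to 18.9 in P, 13.5 to 15.8 in cG, 11.0 to 12.6 in PcG), mast cell and basophil (2 of 5; 3.83 to 4.27, 5.01 to 5.37, 4.18 to 4.91), erythroid (3 of 6; 14.9 to 16.2, 18.7 to 21.7, 14.7 to 17.1) and plasmacytoid dendritic cell (3 of 4; 29.2 to 39.1, 30.0 to 30.2, 29.4 to 30.3). T cell markers summed to 1.75 to 3.32, 5.3 to 8.75 and 4.65 to 5.51, and B cell markers to 4.12 to 4.62, 6.21 to 7.74 and 5.8 to 8.87. Alternatives were other scalings, no filter, DESeq2 1.42.0, fewer libraries in the fit, the replicate block, thinning to 8181254 counts, a stricter threshold, other definitions of opened peaks, and leaving out each library.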

Additional observations from a re-analysis of the deposited data

Results flagged for a closer look

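The effect of cGAMP differed between cells with and without PAM at 3902 peaks, by a test of that difference in edgeR (the interaction). Named peaks with such a difference are given here by their log2 value. Near interferon genes these were Cxcl10 (-0.81), Gbp5 (-0.95), Iigp1 (-3.47), Stat2 (-0.56), Irf7 (-0.64) and the Rsad2 gene body (-0.68). Inflammatory promoters were Acod1 (-1.26), the peak shared by Ccl3 and Ccl4 (-0.58), Ccl5 (-1.15), Cxcl2 (-0.88), Cxcl3 (-1.24), Il23a (-1.44) and Tnf (-1.18). The peak upstream of Il12b gave -1.41, that in its body 2.57, and the end of Nos2 1.41. TLR2 pathway, maturation and feedback promoters were Irak3 (-0.75), Nfkb2 (-0.52), Nfkbie (-0.70), Nfkbiz (-0.68), Tnip1 (-1.11), Cd40 (-0.99), Cish (-0.59), Dusp2 (-0.69), Socs1 (-0.76) and Socs3 (-0.91). Of the 18 settings tried, the call was lost in 10 for Tnip1, 8 for Ccl3, 7 each for Cxcl3 and Stat2, 6 for Irf7, 5 for Cish, 4 for the end of Nos2, 3 for Iigp1, and 2 each for Gbp5 and Nfkb2.

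Outside the lists, values above 0 were found at Acpp (7.38), Rnf213 (3.71), Sox5 (2.78), Kif1c (2.71), Diaph3 (2.70) and Hs3st1 (2.67). Values below 0 were found at Otud4 (-7.47), Trpm3 (-6.62), Kcnk10 (-5.62), Ambra1 (-4.52), Adgb (-4.26), Trim21 (-4.22), Cdyl2 (-3.03), Lox (-2.53) and Zfp811 (-1.52). The call was lost in 7 settings for Kcnk10, 5 for Sox5, 4 for Cdyl2, 3 for Kif1c, 2 each for Rnf213, Trim21, Trpm3 and Zfp811, and 1 each for Acpp and Otud4. The control libraries held 0 counts at Otud4, Trpm3 and Kcnk10 and at most 2 in all at Ambra1, Trim21 and Iigp1, the P libraries held 3 at Rnf213, and the cG libraries held 0 at Acpp. The fitted values there depend on the prior count and bound nothing. All these values use the control libraries, whose mitochondrial share was 60.1% to 61.9% against 44.5% to 50.5% in the other 6, and its part was not tested.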

How the results depend on the processing

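Of 158 called values at named peaks, 94 kept their call in all 18 settings that recomputed them, and 0 changed direction in any. Abundance-dependent offsets left 5 interferon-stimulated promoters lower in PcG than in cG, and total counts left 4. Total counts also gave 6634 interaction peaks and 127 blunted cGAMP-opened peaks, and thinning gave 181 PAM-opened peaks lower than in P. At adjusted p under 0.01 the calls were 9619 against P, 5493 against cG and 1765 for the interaction. The opened sets then held 83 raised, 84 blunted and 965 higher than in P for cGAMP, and 826 higher than in cG and 145 lower than in P for PAM. Opened sets taken from cG against Ctrl gave 730 raised, 483 blunted and 3724 higher than in P. ZcG against Z with no fold limit gave 361 raised and 406 blunted, in place of 246 and 191, so which count is larger depends on that limit. Sets from P against Ctrl gave 3455 and 1530, and PS against S with no fold limit 1994 and 638. The sets from cG or P against Ctrl were chosen on libraries that PcG is then compared with. Their counts against that same ligand are therefore not independent of the choice. All locus peaks in place of promoter peaks gave 143 interferon-stimulated peaks higher than in P, 29 lower than in cG, and 62 inflammatory peaks higher than in cG.

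Some medians near 0 changed sign. The TLR2 pathway list against cG went from -0.0823 to 0.0321 with abundance-dependent offsets, 0.00197 with total counts and 0.166 with locus peaks, and the feedback list from -0.0177 to 0.0984, 0.066 and 0.0971. With total counts, cGAMP-opened peaks against cG gave 0.0481, and the TLR2 pathway and housekeeping lists against P gave 0.0317 and 0.0721. With locus peaks, housekeeping against P gave 0.0399 and the maturation list against cG 0.129.

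Leaving out each library in turn gave 9851 to 18011 calls against P, 5338 to 11139 against cG and 2156 to 3410 for the interaction. For cGAMP-opened peaks the ranges were 137 to 271 raised, 79 to 203 blunted and 1244 to 1822 higher than in P. For PAM-opened peaks they were 951 to 1308 higher than in cG and 158 to 352 lower than in P. For the lists they were 19 to 25 interferon-stimulated promoters higher than in P, 4 to 10 lower than in cG, and 6 to 9 inflammatory promoters higher than in cG. Leaving a group with 1 library also removes residual information, so fewer calls follow from that construction in part.

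With the replicate block the calls were 17479, 10811 and 3894, and the sets 243 raised, 190 blunted, 1715 and 1266 higher and 334 lower, with 25, 10 and 9 list promoters. Across all peaks, same-numbered libraries did not deviate together (correlations of -0.0181 to 0.0411 between the 4 groups). Counting error at peaks of few counts lowers such correlations, so they cannot show whether same-numbered libraries were prepared together. Peaks near 1 CPM rest on few counts, and differences there may not be detectable at this depth.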
